A study of Homo sapiens with 2 samples.

Results

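The 10 keratin genes described here are the basal keratins KRT5, KRT6A, KRT14, KRT15, KRT16 and KRT17 and the luminal keratins KRT7, KRT8, KRT18 and KRT19 of human mammary epithelium. They were chosen by name, as the rows of both count tables whose Ensembl identifier carries one of these symbols in GENCODE release 44, and all 10 were found among the 58735 genes in the tables. The study sequenced polyadenylated RNA of MCF10a-Snail-ER cells by Oxford Nanopore direct RNA sequencing on the MinION, which reads native RNA strands, and on an Illumina instrument from a TruSeq stranded mRNA preparation, which is made of amplified cDNA fragments. MCF10a is a non-tumorigenic human mammary epithelial line, and this derivative carries a stable fusion of the estrogen receptor with Snail, a transcription factor that represses epithelial genes. Both libraries came from cells that had received tamoxifen (100 nM, 1 day), which sets off the first steps of epithelial-to-mesenchymal transition, in medium with horse serum, EGF, hydrocortisone, cholera toxin and insulin. Each platform is represented by 1 library, and no untreated or Snail-free library enters, so the data compare 2 ways of measuring the same kind of RNA and hold no response of keratins to Snail. No difference below has a replicate check, and every interval and test covers counting error in these 2 libraries only.

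Keratins are the intermediate filament proteins of epithelial cells. A filament is built from pairs of 1 acidic type I chain (here KRT14, KRT15, KRT16, KRT17, KRT18 and KRT19) and 1 basic or neutral type II chain (here KRT5, KRT6A, KRT7 and KRT8), so each cell needs chains of both kinds. In the breast, KRT5, KRT14 and KRT17 mark the basal and myoepithelial layer, while KRT7, KRT8, KRT18 and KRT19 mark the luminal cells that line the duct. KRT6A, KRT16 and KRT17 are induced in stressed or wounded epidermis. All members but KRT18 lie in the keratin cluster of their own type, type I genes on chromosome 17 and type II genes on chromosome 12, and KRT18 lies beside KRT8 in the type II cluster.

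Total depth was 403235 counts by Nanopore and 191741714 by Illumina. Levels are given as CPM, counts divided by the library total and multiplied by 1000000. A single count was 2.48 CPM by Nanopore and 0.00522 CPM by Illumina, and the floor of 3 counts was 7.44 and 0.0156 CPM. The basal character of the cells was checked on 6 other basal mammary genes (TP63, ITGA6, ITGB4, LAMA3, LAMB3 and COL17A1). All 6 had counts in both libraries, from 12.4 CPM for TP63 to 159 CPM for LAMB3 by Nanopore. By Illumina the same genes ran from 33.2 to 423 CPM. Each of the 6 was higher by Illumina in the test used below, where 27.2% of all tested genes were. These calls were made in CPM, with no division by transcript length. ITGA6, at 49.6 and 202 CPM, was past 4-fold. Of 7 luminal genes, 5 were detected by Nanopore and 6 by Illumina, with a summed level of 52.1 and 71.6 CPM, and KIT was at 0 in both. The summed level was 27.3 and 33.8 CPM for 6 fibroblast genes, 2.48 and 6.61 CPM for 4 endothelial genes, 12.4 and 11.0 CPM for 4 immune genes, and 27.3 and 22.5 CPM for 4 myoepithelial genes other than keratins, with CNN1 at 0 in both. ESR1, the gene of the receptor that is also fused to Snail here, was at 965 CPM by Nanopore and 143 CPM by Illumina. PGR was at 0 in both. With FOXA1 and AREG these make 4 hormone-responsive luminal genes, whose summed level was 1106 CPM by Nanopore and 261 CPM by Illumina. FOXA1 was at 0 by Nanopore, so the part of that Nanopore sum beyond ESR1 was AREG. In these bulk libraries a smaller number of cells of a type and less RNA per cell cannot be told apart.

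Keratin transcripts resemble one another, and how far they do bears on which gene a read is counted for. The 60 coding bases at which KRT15 is most like the other type I members on chromosome 17 lie in exon 1 of each gene, on the minus strand of hg38 except for KRT18, and are shown because KRT15 is the member whose 2 measurements lay farthest apart. Capitals mark bases that differ from KRT15.
KRT15, chr17:41518447-41518506: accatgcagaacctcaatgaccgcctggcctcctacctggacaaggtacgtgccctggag
KRT14, chr17:41586424-41586483: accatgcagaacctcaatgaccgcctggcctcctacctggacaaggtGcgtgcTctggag
KRT16, chr17:41612272-41612331: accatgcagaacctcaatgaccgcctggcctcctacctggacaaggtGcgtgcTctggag
KRT17, chr17:41624192-41624251: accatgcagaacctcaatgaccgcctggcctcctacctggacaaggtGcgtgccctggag
KRT19, chr17:41527942-41528001: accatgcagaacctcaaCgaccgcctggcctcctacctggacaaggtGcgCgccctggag
KRT18, chr12:52949420-52949479: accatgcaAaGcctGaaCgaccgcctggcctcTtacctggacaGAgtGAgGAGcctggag
In this window KRT17 differed from KRT15 at 1 of 60 bases, KRT14 and KRT16 at 2, KRT19 at 3 and KRT18 at 12. Over the aligned coding sequence KRT15 was 77.4% identical to KRT14, 76.9% to KRT16 and 76.1% to KRT17, and its longest identical run with each of these 3 was 47 bases. KRT14 and KRT16 were closer to each other, at 88.7% identity with a run of 158 identical bases.

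The type II member with the closest relatives is KRT6A. Its coding sequence was 97.9% identical to KRT6C and 97.5% to KRT6B, all 3 being 1692 bases long, and 83.7% identical to KRT5. Of all stretches of 60 coding bases within 1 exon, 1 in exon 2 has the most differences from both near copies. It lies on the minus strand of chromosome 12 in hg38. It is shown because it sets KRT6A apart from both copies best among these coding stretches. Stretches of untranslated bases were not compared in this way. Capitals mark bases that differ from KRT6A.
KRT6A, chr12:52491555-52491614: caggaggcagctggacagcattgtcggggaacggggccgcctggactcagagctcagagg
KRT6C, chr12:52472099-52472158: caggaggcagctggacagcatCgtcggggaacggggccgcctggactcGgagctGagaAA
KRT6B, chr12:52450439-52450498: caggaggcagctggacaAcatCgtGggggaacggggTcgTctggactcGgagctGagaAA
KRT5, chr12:52518979-52519038: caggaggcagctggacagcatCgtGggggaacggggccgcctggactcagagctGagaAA
In this window KRT6C differed from KRT6A at 5 bases and KRT6B at 9. KRT5, for which the window was not chosen, also differed at 5. The share of 50-base words of the transcript that also occur in another annotated gene was 39.2% for KRT8, 39.2% for KRT6A, 35.3% for KRT18, 24.2% for KRT14, 21.8% for KRT16 and 17.4% for KRT17. It was 4.52% for KRT5, 1.79% for KRT19, 1.08% for KRT7 and 1.02% for KRT15, whose shared words were all in KRT13.

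The classical basal pair was abundant in both libraries. KRT5, the type II keratin of basal cells (ENSG00000186081, chromosome 12, 52514575 to 52520530, hg38), had 680 counts by Nanopore, or 1686 CPM (95% exact Poisson interval 1562 to 1818), and 277508 counts by Illumina, or 1447 CPM (1442 to 1453). It ranked 86 of all genes by Nanopore counts and 82 by Illumina counts. KRT14, its type I partner (ENSG00000186847, chromosome 17, 41582279 to 41586895), was at 799 CPM in the Nanopore library (714 to 891; 322 counts) and 611 CPM in the Illumina library (608 to 615). Both genes were slightly higher by Nanopore, KRT5 by 1.17-fold (95% exact interval 1.08 to 1.26) and KRT14 by 1.31-fold (1.17 to 1.46).

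The keratins of stressed epidermis spanned a wide range of levels. KRT17, a type I keratin also present in resting basal cells (ENSG00000128422, chromosome 17, 41619442 to 41624842), was at 533 CPM in the Nanopore library (464 to 609; 215 counts) and 290 CPM in the Illumina library (287 to 292). That is a 1.84-fold higher level by Nanopore (1.60 to 2.1). KRT6A, a type II keratin of hyperproliferative epithelium (ENSG00000205420, chromosome 12, 52487176 to 52493257), was at 293 CPM in the Nanopore library (242 to 350; 118 counts) and 253 CPM in the Illumina library (251 to 256), and the interval of this ratio included 1 (0.956 to 1.38). KRT16, the type I chain usually induced together with KRT6A (ENSG00000186832, chromosome 17, 41609778 to 41615899), had 8 counts and 19.8 CPM by Nanopore (8.57 to 39.1), against 12.3 CPM by Illumina (11.8 to 12.8). At this depth no difference between the libraries was detectable for KRT16 (ratio 1.61, 0.693 to 3.17).

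KRT15 was the exception among the members. This type I keratin of basal cells and of stem cells of the hair follicle (ENSG00000171346, chromosome 17, 41513745 to 41522529) had 36 counts by Nanopore, or 89.3 CPM (62.5 to 124), and 763 counts by Illumina, or 3.98 CPM (3.70 to 4.27). The Nanopore level was 22.4-fold higher (15.6 to 31.3), and the gene ranked 1724 by Nanopore and 11818 by Illumina. Within the Nanopore library there were 8.94 KRT14 reads for each KRT15 read (6.33 to 13). By Illumina, with counts divided by the length of the canonical transcript (the single transcript that Ensembl picks to represent a gene), there were 161 (150 to 173), and with union exonic length (all annotated exons of a gene merged) 407 (379 to 437). The only other listed gene inside its body is the microRNA gene MIR6510, at 0 in both libraries. The share of words that KRT15 has in common with other genes was the lowest of the 10, while its best window matched KRT14, KRT16 and KRT17 at all but 1 or 2 of 60 bases, and the part of this likeness in the KRT15 counts was not tested.

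Among the luminal keratins, KRT7 stood as high as the basal pair. KRT7, a type II keratin of simple and ductal epithelium (ENSG00000135480, chromosome 12, 52232520 to 52252186), was at 1285 CPM in the Nanopore library (1176 to 1400; 518 counts) and 1179 CPM in the Illumina library (1174 to 1184), a ratio of 1.09 whose interval reached 1 (0.998 to 1.19). KRT8, the type II chain of the simple epithelial pair (ENSG00000170421, chromosome 12, 52897187 to 52949954), was at 389 CPM in the Nanopore library (331 to 455; 157 counts) and 209 CPM in the Illumina library (207 to 211), 1.86-fold higher by Nanopore (1.58 to 2.18). KRT18, its type I partner (ENSG00000111057, chromosome 12, 52948871 to 52952906), was at 280 CPM in the Nanopore library (231 to 337; 113 counts) and 322 CPM in the Illumina library (319 to 324). It was the only member with a lower value by Nanopore, and the interval of that ratio included 1 (0.717 to 1.05).

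KRT19, a type I keratin used as a marker of luminal cells (ENSG00000171345, chromosome 17, 41523617 to 41528308), was close to absent. It had 1 count by Nanopore, or 2.48 CPM (0.0628 to 13.8), and 88 counts by Illumina, or 0.459 CPM (0.368 to 0.565). The ratio was 5.40 with a counting interval of 0.135 to 30.9. Its Nanopore value lay under the floor of 7.44 CPM. So KRT7, KRT8 and KRT18 stood between 209 and 1285 CPM in both libraries, and KRT19 at 2.48 CPM or less.

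**Figure D1:**
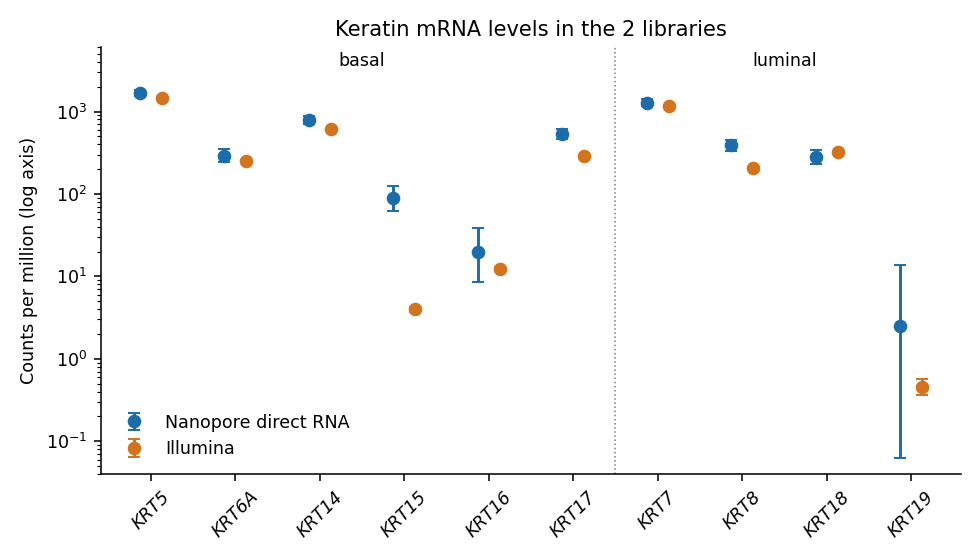
Level of each keratin in CPM (log axis) in the Nanopore (blue) and Illumina (orange) library, with 95% exact Poisson intervals that cover counting error only. KRT5 and KRT7 are highest in both libraries, KRT15 is at 89.3 by Nanopore and 3.98 by Illumina, and KRT19 is at 2.48 and 0.459.

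In direct RNA sequencing each read is 1 RNA strand, so the Nanopore counts of different members were compared without division by length. Whether these reads were corrected with short reads before they were aligned is not given in the sources used here, and it bears on which keratin a read was counted for and on how separate the 2 measurements are. The order ran KRT5, KRT7, KRT14, KRT17, KRT8, KRT6A, KRT18, KRT15, KRT16, KRT19. Of the 9 neighbouring steps, only KRT6A over KRT18 was within counting error, at a ratio of 1.04 (95% exact interval 0.800 to 1.36). KRT8 over KRT6A was the next closest, at 1.33 (1.04 to 1.70). By Illumina, levels of different genes were compared per length of transcript. With canonical transcript length the order was KRT7, KRT5, KRT14, KRT18, KRT17, KRT8, KRT6A, KRT16, KRT15, KRT19, and with union exonic length it was KRT5, KRT7, KRT14, KRT18, KRT17, KRT6A, KRT8, KRT16, KRT15, KRT19. Each neighbouring step in both Illumina orders exceeded counting error. The 3 most abundant genes were thus KRT5, KRT7 and KRT14 in every order, and together they held 70.1% of the keratin counts by Nanopore (95% exact interval 68.1 to 72.0%) and 72.7% or 73.9% of the length-divided Illumina level by canonical or union length.

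For scale, vimentin, the intermediate filament protein of mesenchymal cells that MCF10a cells also make, was set against KRT5 within each library. There were 1.03 VIM reads for each KRT5 read by Nanopore (0.925 to 1.15), so the 2 transcripts did not differ beyond counting error. By Illumina the ratio was 1.31 (1.31 to 1.32) per canonical transcript length and 1.01 (1.00 to 1.01) per union exonic length.

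Because type I and type II chains are used in equal number, the transcripts of known partners were compared within each library, where differences in library scaling cancel. KRT5 exceeded KRT14 in both. The ratio was 2.11 by Nanopore (1.85 to 2.42), 1.73 by Illumina per canonical length (1.72 to 1.74) and 1.29 per union length (1.28 to 1.30). KRT6A exceeded KRT16 by 14.8-fold by Nanopore (7.25 to 35.0), and by 14.8-fold (14.2 to 15.4) or 17.4-fold (16.7 to 18.1) by Illumina per canonical or union length. KRT6A was lower than KRT17, its other partner in stressed epithelium, with a ratio of 0.549 by Nanopore (0.435 to 0.690), 0.575 by Illumina per canonical length (0.568 to 0.582) and 0.896 per union length (0.885 to 0.907).

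The simple epithelial pair was the one in which the libraries gave opposite orders. KRT8 exceeded KRT18 by Nanopore, with 157 against 113 counts and a ratio of 1.39 (1.08 to 1.79). By Illumina KRT8 was the lower of the 2, with 40083 against 61710 counts, a ratio of 0.650 before any division by length. The ratio was 0.514 (0.508 to 0.521) per canonical length and 0.290 (0.286 to 0.293) per union length. None of these 3 Illumina values lay inside the Nanopore interval.

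**Figure D2:**
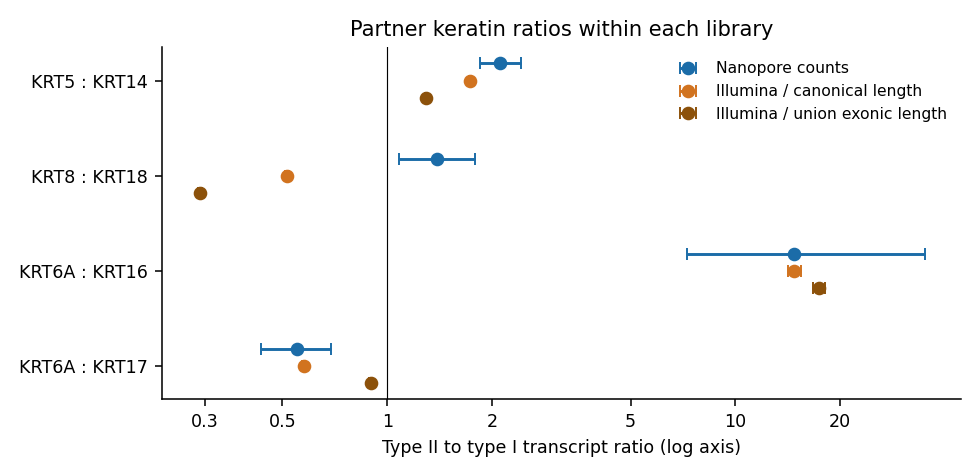
Ratio of type II to type I transcripts (log axis) for 4 partner pairs, from Nanopore counts (blue) and from Illumina counts divided by canonical transcript length (orange) or union exonic length (brown), with 95% exact intervals for counting error. KRT8 to KRT18 is 1.39 by Nanopore and 0.514 or 0.290 by Illumina, on opposite sides of 1.

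Summed over the 10 genes, type I transcripts were the smaller part in both libraries. They made up 695 of 2168 Nanopore keratin counts, or 32.1% (95% exact interval 30.1 to 34.1%), and 38.6% or 33.4% of the Illumina level per union or canonical length. The basal keratins held 63.6% by Nanopore (61.5 to 65.6%) and 65.3% or 55.4% by Illumina per union or canonical length. All 10 together held 0.538% of all Nanopore counts and 0.433% of all Illumina counts. Mean annotated transcript length, another way to divide, gave 22.6% for the type I and 53.1% for the basal share, since GENCODE lists many short partial transcripts for some members (13 transcripts with a mean of 608 bases for KRT7).

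To compare the platforms, each gene whose 2 levels averaged 5 CPM or more was given an exact conditional binomial test, with p-values adjusted by the Benjamini-Hochberg method over all 12414 such genes. Log2 ratios set the Nanopore over the Illumina level after 1 CPM was added to both, so they are too small for rare genes. Of the 10 keratins 9 entered, as KRT19 was below the minimum, and KRT15 entered through its Nanopore value alone. At an adjusted p under 0.05, 5 of the 9 were higher by Nanopore, where 20.2% of all tested genes were. None was higher by Illumina, where 27.2% of all tested genes were, and the count at an unadjusted p under 0.05 was also 0. The 5 were KRT15, KRT17, KRT8, KRT14 and KRT5, with log2 ratios of 4.18, 0.88, 0.89, 0.38 and 0.22. With a 4-fold ratio required as well, only KRT15 was called, where 12.9% of all tested genes were called higher by Nanopore and 7.31% higher by Illumina. In this exact test the Benjamini-Hochberg adjusted p was 1.35e-33 for KRT15, 6.40e-15 for KRT17, 1.82e-11 for KRT8, 2.33e-05 for KRT14 and 0.000411 for KRT5. By the same exact test it was 0.105 for KRT7, 0.220 for KRT6A, 0.238 for KRT18 and 0.376 for KRT16. The median log2 ratio of the 9 was 0.38, against -0.42 over all tested genes.

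The canonical transcripts of the 9 tested keratins are 1413 to 2308 bases long, and all 1975 tested protein-coding genes in that range had a median log2 ratio of -0.29, against -0.58 over all 10498 tested protein-coding genes. In that range 15.1% of genes were higher by Nanopore and 22.9% lower at an adjusted p under 0.05. Division of the Illumina counts by length raised the median over all tested genes by 0.83 with union exonic, 0.91 with canonical and 0.49 with mean transcript length. The share of all calls that were higher by Nanopore then went from 42.6% to 72.0%, 75% and 59.7%, and it was 21.1% when only genes that overlap no other gene were tested. Read against the median of all tested genes, the keratin median stood 0.80 above it in CPM, and 0.28, 0.26 and 0.24 above it after division by union, canonical and mean transcript length. Median-ratio scaling moved the median over its tested genes by 0.14, and the keratin median stood 0.79 above it.

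**Figure D3:**
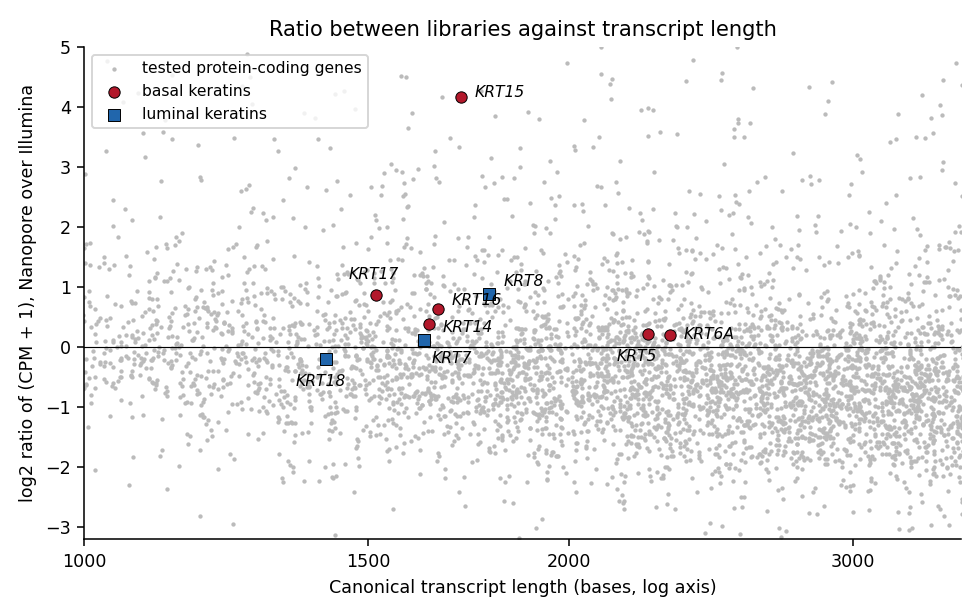
Log2 ratio of Nanopore to Illumina CPM plus 1 against canonical transcript length (log axis) for tested protein-coding genes (grey) and the 9 tested keratins (red circles basal, blue squares luminal). The axes cover a window around the keratins, and genes outside it are not drawn. KRT15 stands at 4.18 and the other keratins between -0.20 and 0.89.

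KRT8, KRT14, KRT15, KRT16, KRT17 and KRT18 kept the sign of their ratio in every setting in which they were tested, and KRT8, KRT15 and KRT17 also kept their call. After division by canonical transcript length 7 members were called higher by Nanopore and KRT18 was called lower, with a fold of 0.794 (0.657 to 0.958), where 33.4% of all tested genes were higher by Nanopore and 11.2% lower. KRT14 lost its call with union exonic length, at a log2 ratio of 0.13. With that length 6 members were called higher by Nanopore and none higher by Illumina, where 32.6% and 12.7% of all tested genes were. KRT5, KRT6A and KRT7 turned to log2 ratios of -0.10, -0.18 and -0.85 with mean transcript length, which is 957, 913 and 608 bases for these genes, against canonical lengths of 2238, 2308 and 1625 bases. Of these 3, KRT7 was called higher by Illumina with mean transcript length (exact binomial test, adjusted p = 1.68e-48), and KRT5 and KRT6A were not called. In that setting 4 members were called higher by Nanopore and 1 higher by Illumina, where 24.8% and 16.7% of all tested genes were. KRT7 was instead called higher by Nanopore with TMM scaling (adjusted p = 0.00373), which called 6 members higher by Nanopore and none higher by Illumina, where 21.4% and 23.8% of tested genes were. Median-ratio scaling called 7 members higher by Nanopore, KRT7 (adjusted p = 0.000497) and KRT6A (adjusted p = 0.0391) among them, and none higher by Illumina, where 21.8% and 22.4% of tested genes were. KRT8 was 1.86-fold higher by Nanopore in CPM, 2.14-fold higher per canonical length and 4.73-fold higher per union length. Its union length of 6881 bases is far above its canonical 1784.

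**Figure D4:**
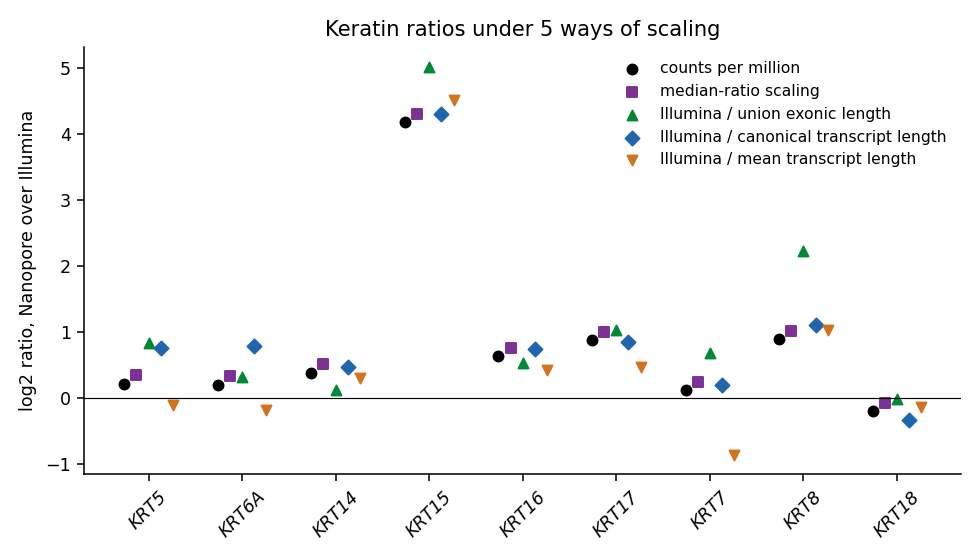
Log2 ratio of Nanopore over Illumina for the 9 tested keratins under 5 ways of scaling, 1 symbol for each. KRT15 is between 4.18 and 5.01 in every one, while KRT5, KRT6A and KRT7 fall below 0 with mean transcript length.

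Some members share their place in the genome with other genes. KRT7 overlaps the antisense lncRNA KRT7-AS (ENSG00000257671, chromosome 12, 52245048 to 52247448) on the other strand, and their merged exons share 282 bases. KRT7-AS had 495 Nanopore counts, 95.6% of the KRT7 count, and 16993 Illumina counts, 7.52% of the KRT7 count. Its level was 13.9-fold higher by Nanopore (12.6 to 15.1). Whether strand was used in counting is not given in the sources used here. Reads that touch the shared bases, also those that run on beyond them, thus cannot be assigned to a strand here. The shared bases are 7.05% of the KRT7 and 16.7% of the KRT7-AS exons, and 221 of them lie in the canonical KRT7 transcript. The part of such reads in the counts of KRT7-AS and KRT7 was not tested. The ratio of the libraries for KRT7 itself was 1.09.

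The body of KRT86, a type II hair keratin gene, begins inside KRT7 and runs across KRT81, another type II hair keratin gene on the opposite strand. KRT86 had 760 Nanopore counts and KRT81 had 751, although their merged exons share no base. By Illumina KRT86 had 4763 counts, 2.58% of the 184264 counts of KRT81. KRT86 was 75.9-fold higher by Nanopore (70.2 to 81.9) and KRT81 was 1.94-fold higher (1.80 to 2.08). Of the 50-base words of KRT81, 38.4% also occur in KRT86. At 1862 CPM by Nanopore and 961 CPM by Illumina, KRT81 was on the level of KRT5, with 1.10 KRT81 reads for each KRT5 read by Nanopore (0.994 to 1.23). Per canonical length the Illumina ratio of KRT81 to KRT5 was 0.770 (0.766 to 0.775), and per union length 1.42 (1.41 to 1.43).

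**Figure D5:**
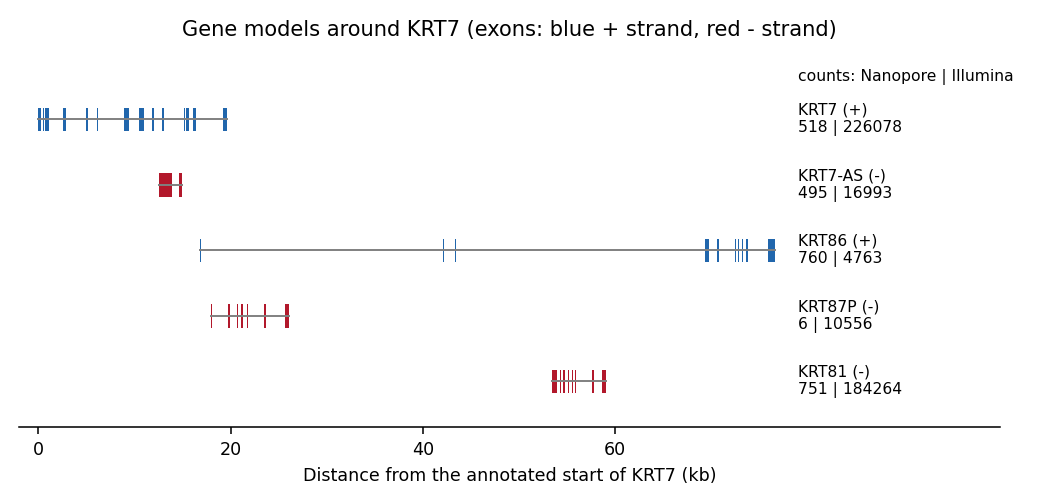
Gene models of KRT7 and its neighbours, as distance in kb from the annotated start of KRT7, with merged exons as boxes (blue plus strand, red minus strand) and gene bodies as lines. Counts at the right show KRT7-AS at 495 by Nanopore beside 518 for KRT7, and KRT86 at 760 beside 751 for KRT81.

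KRT8 and KRT18 lie head to head on opposite strands. The annotated body of KRT8 reaches into KRT18, and their merged exons share 525 bases, while their canonical transcripts share none. The part of this overlap in the opposite KRT8 to KRT18 ratios was not tested. KRT5, KRT6A, KRT14, KRT16, KRT17 and KRT19 overlap no other gene of the tables. Among these 6, KRT5, KRT14 and KRT17 were called higher by Nanopore when only the 3049 tested genes without overlap were used. KRT6A and KRT16 were not called. In that setting 254 of the 3049 genes were called higher by Nanopore and 950 higher by Illumina.

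Copies of the members took up few counts. The near copies KRT6B and KRT6C had 1 and 0 counts by Nanopore and 515 and 437 by Illumina, against 118 and 48592 for KRT6A. For KRT6B the ratio of the libraries was 0.923 with an interval of 0.0233 to 5.17, and KRT6C at 2.28 CPM by Illumina lay below the Nanopore floor. The 51 annotated pseudogenes of KRT8 had 3 Nanopore counts and 2057 Illumina counts, 1.91% and 5.13% of the parent gene. The 67 pseudogenes of KRT18 had 2 and 2713 counts, 1.77% and 4.4% of the parent. The 8 pseudogenes of KRT17 had 0 and 1561 counts, 2.81% of the parent by Illumina. KRT16 was the member with the largest share, as its 6 pseudogenes held 1151 Illumina counts, 48.6% of the 2366 of KRT16 itself, and none by Nanopore. With these copies added, the log2 ratio of KRT16 went from 0.64 to 0.11.

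Of the 45 other keratin genes, 10 had a Nanopore count and 21 an Illumina count, and 4 reached the minimum for testing. These were KRT81, KRT86, KRT10 and KRT83. The first 3 were higher by Nanopore at an adjusted p under 0.05, where 20.2% of all tested genes were. KRT86 and KRT10 were also past 4-fold, where 12.9% of all tested genes were. KRT10, the type I keratin of differentiating epidermis, had 50 Nanopore and 3856 Illumina counts, a 6.17-fold higher level by Nanopore (4.57 to 8.15), and it overlaps KRT10-AS1 on the other strand, with 9 and 4420 counts. KRT83, a hair keratin, had 4 and 813 counts with a ratio of 2.34 (0.636 to 6.01). Of 151 keratin pseudogenes 7 had a Nanopore and 72 an Illumina count, and only KRT87P was tested. It was lower by Nanopore, at 14.9 against 55.1 CPM, and its body also overlaps KRT7.

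The proteins that anchor keratin filaments were measured as a list of 13 genes, of which 11 were tested. In CPM 1 of the 11 was called higher by Nanopore and 4 by Illumina, where 20.2% and 27.2% of all tested genes were. The median log2 ratio was -0.42, as over all tested genes. PLEC, which codes for the linker plectin, was at 181 CPM by Nanopore and 382 CPM by Illumina. SFN (14-3-3 sigma, which binds KRT17) was at 228 and 281 CPM, DSP (desmoplakin) at 131 and 186 CPM, and DST (dystonin, with a form that ties keratins to hemidesmosomes) at 94.2 and 156 CPM. PKP2, a desmosomal plakophilin, was the 1 gene higher by Nanopore, at 52.1 against 20.8 CPM. PLEC, DSP and DST were called higher by Illumina and SFN was not. After division by canonical length PLEC, DSP and DST were instead called higher by Nanopore, by 4.52-fold, 4.42-fold and 9.61-fold. SFN was then called lower by Nanopore, with a fold of 0.685, and PKP2 stayed higher at 6.84-fold. In that setting 33.4% of all tested genes were higher by Nanopore and 11.2% lower. After division by canonical length the median of this list was 1.04, and the median canonical length of its tested genes was 5632 bases.

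Of 13 other intermediate filament genes 4 were tested. In CPM 0 were called higher by Nanopore and 3 by Illumina, where 20.2% and 27.2% of all tested genes were. LMNA, which codes for lamins A and C, was at 414 CPM by Nanopore and 560 CPM by Illumina, LMNB2 at 67.0 and 223 CPM, and LMNB1 at 52.1 and 191 CPM, while VIM did not pass the test. Their median log2 ratio was -1.08 in CPM and 0.13 per canonical length. Of 12 regulators of keratin genes 9 were tested. Against the same shares over all tested genes, 0 were called higher by Nanopore and 4 by Illumina (STAT3, TFAP2A, SP1 and TP63). KLF5 was at 91.8 and 68.7 CPM and NFE2L2 at 67.0 and 98.6 CPM, neither of them called, STAT3 at 32.2 and 112 CPM, and TFAP2A at 32.2 and 61.0 CPM. SP1, with 3 Nanopore counts, was at 7.44 and 77.9 CPM, a ratio of 0.0955 (0.0197 to 0.279), and was the 1 regulator past 4-fold. TP63, the master regulator of basal keratin genes, was at 12.4 and 33.2 CPM, with 5 Nanopore counts. The median of the regulators was -0.90 in CPM and 0.10 per canonical length. The basal marker list, which holds 1 gene not reported here, had a median of -1.41 in CPM. That median was 0.24 per canonical and 0.05 per union length, and the median canonical length of the list was 5612 bases.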

How the data were processed

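The authors deposited 1 table of whole-number counts per gene for each library, without normalization. Per the submitters' processing notes, hg38, minimap2 2.11-r797, HISAT2 2.1.0 and featureCounts were used; the annotation release, the strand setting and the treatment of multi-mapping or overlapping reads are not given in the sources used here, nor is the meaning of a suffix in the Nanopore column header. These settings decide where a read common to several genes is counted.

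Symbols, positions and lengths came from GENCODE release 44 (hg38), which held 58207 of 58735 identifiers; printed sequences are its transcripts. Counts were divided by the library total (CPM). Each gene averaging 5 CPM or more had an exact conditional binomial test, two-sided (scipy 1.17.1), with Benjamini-Hochberg adjustment. With 1 library per platform no dispersion can be estimated, so no replicate-based count model was fitted. TMM factors came from edgeR 4.0.16. The test was tested on simulated data. Intervals are 95% exact Poisson or Clopper-Pearson intervals, and amplified reads are not independent molecules, so they cover counting error only. Coding sequences were aligned globally with Biopython 1.88. Named genes were all members, KRT6B and KRT6C, other keratins averaging 5 CPM or more, genes overlapping a member, the 4 highest of each list and any list member called past 4-fold; genes outside this rule (PKP2, TP63, KRT10-AS1, single marker genes) were named with their values known. Members and lists were chosen with earlier results of these data known. One gene of the basal marker list is not reported here.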

Additional observations from a re-analysis of the deposited data

How the results depend on the processing

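Of 12 alternative settings, 2 were chosen after seeing the data: canonical transcript length, and testing all genes with any count. The calls were 5 keratins, all higher by Nanopore, and canonical length gave 8. The restriction to genes without overlap gave 3, all higher by Nanopore, since only 5 keratins remain in it. Of the 3049 genes tested under that restriction, 254 were called higher by Nanopore and 950 higher by Illumina. Past 4-fold there was 1 keratin, 2 with union exonic length (KRT8 joins KRT15) and 0 without overlapping genes, where KRT15 is not tested. The keratin median of 0.38 became 0.69 with union and 0.76 with canonical length. Of 9 tested keratins 8 had a ratio above 0; this was 5 of 9 with mean transcript length and 5 of 5 without overlapping genes. With mean transcript length KRT5 turned to -0.10, KRT6A to -0.18 and KRT7 to -0.85. With 5 CPM added in place of 1 the log2 ratio of KRT15 was 3.39, against 4.18. The type I share was 32.1% by Nanopore and 38.6% by Illumina. It became 19.9% and 27.7% over all keratin genes. By Illumina it was 41.5% without KRT6A, 22.6% with mean transcript length, 33.4% with canonical length and 28.6% with no division. The other keratin genes added 1574 Nanopore counts, of which KRT86 held 760 and KRT81 held 751. They added 196480 Illumina counts, of which KRT86 held 4763 and KRT81 held 184264. The basal share was 63.6% and 65.3%. It became 36.9% and 45.9% over all keratin genes. Without KRT6A it was 62.7% by Illumina. The Nanopore value computed for that setting, 67.3%, is 1379 of 2050 counts. Its numerator still holds the 118 KRT6A counts, which its denominator lacks, so 67.3% is too high and cannot be set against 62.7%. By Illumina the basal share was 53.1% with mean transcript length, 55.4% with canonical length and 60.5% with no division. Where no construction is named, the cause was not tested. Of the values of single keratins under these settings, 91 kept direction and call. With the direction kept, 8 gained a call and 1 lost it, and 3 values reversed. Of the reversed values, KRT5 also lost its call and KRT7 was called higher by Illumina. No paired analysis was possible because each platform has 1 library. Depth limits KRT16, KRT19, KRT6B and KRT6C, with 8 Nanopore counts or fewer.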
